A study of Mus musculus with 6 samples.

Results

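Gene expression was examined for 8 genes known from the ciliary body and the peripheral margin of the eye, *Best2*, *Folr1*, *Wfdc1*, *Wls*, *Otx1*, *Zic1*, *Zic2* and *Msx1*. They were taken by name and matched by symbol, with no measured value in the rule, and all 8 were among the 55421 genes listed. The list was, however, chosen with earlier results of these data known. Fragments were counted per gene in retinas of mice aged 2 months, 3 of them control (*Yap* fl/fl; YR612, YR613 and YR615) and 3 *Yap* cKO (*Yap* fl/fl;RaxCreERT2; YR711, YR713 and YR714), and values per retina are given below in this order of animals. Both groups carried the floxed *Yap* alleles and both received 4-hydroxytamoxifen at postnatal days 10 and 14. By design the groups thus differed by the Cre transgene, which the *Rax* locus drives. In the adult eye, *Rax* is active in Müller glia and in the non-pigmented ciliary epithelium. The study compared these retinas to find early expression changes in a line whose ciliary body was also examined. The eye was cut just below the ora serrata, where the retina meets the ciliary body, and the lens was taken out, so how much marginal tissue stayed with each retina was set by that cut and is not recorded. The 3 retinas of each group were described as independent biological replicates. Sex, litter and dissection day were not given in the sources used here. The animal codes and the sample numbers in the count headers also ran by group, lower in control than in *Yap* cKO retinas. What these numbers stand for is not stated, and anything that follows them cannot be told apart from genotype.

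The ciliary body is a folded ring of tissue between the retina and the iris. An inner non-pigmented and an outer pigmented epithelium cover it, secrete the aqueous humor and anchor the zonular fibres that hold the lens, and the non-pigmented layer also secretes proteins of the vitreous. It forms from the margin of the optic cup under Wnt and BMP signals, and transcription factors of the Otx, Msx and Zic families take part in patterning the eye and head. YAP is a transcriptional coactivator of the Hippo pathway that reaches DNA through TEAD factors, whose core motif reads GGAATG.

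Promoter windows from 250 bases before to 50 bases after the start (300 bases, RefSeq on GRCm38.p6) were given for 3 of the 8 genes, *Msx1*, *Zic1* and *Wls*. GGAATG was searched on both strands, and 1 of the 3 windows held it. The *Zic1* window (chr9:91365719-91366018, minus strand, 65.3% GC) is shown because it is the member window with the motif, in capitals, 15 bases before the start.
Zic1: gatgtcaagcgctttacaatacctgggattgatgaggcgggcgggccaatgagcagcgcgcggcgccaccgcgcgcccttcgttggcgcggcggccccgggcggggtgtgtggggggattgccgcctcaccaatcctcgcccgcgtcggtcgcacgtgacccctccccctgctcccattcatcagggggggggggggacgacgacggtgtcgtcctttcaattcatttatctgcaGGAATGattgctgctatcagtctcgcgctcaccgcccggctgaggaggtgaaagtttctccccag
Of 32851 mouse promoter windows of this length, 14.7% held the motif, and a match describes these letters and not a site in use.

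Between 24261799 and 35067068 fragments per retina were assigned to genes. *Yap1*, the floxed gene, fell from 9.61 ± 0.189 to 3.9 ± 0.12 TPM (SD, n = 3 each), with a log2 fold change of -1.36 (SE 0.0928, adjusted p = 0.000282). Levels are given as TPM, a share of all transcripts that was computed here from counts and exonic lengths. Unless another tool is named, each adjusted p was computed by the quasi-likelihood test of edgeR and adjusted by the Benjamini-Hochberg method over the 16575 genes that passed the filter on low counts. The log2 fold changes are *Yap* cKO over control from that fit, on normalized counts. As a check of the labelled tissue, 9 rod photoreceptor genes summed to between 29933 and 32383 TPM in control and between 30475 and 32187 TPM in *Yap* cKO retinas, while the 8 ciliary body and margin genes summed to between 73.4 and 90.1 TPM in control and between 41.8 and 61.0 TPM in *Yap* cKO retinas. The genes described here were thus minor transcripts of these retinas.

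All 8 genes had a lower mean TPM in *Yap* cKO than in control retinas. Of the 7 that were tested, 7 had a log2 fold change below 0, as did 49.7% of all tested genes, and 2, *Best2* and *Folr1*, fell at an adjusted p of at most 0.05. Among all tested genes 0.989% fell by this test. *Best2* and *Otx1* reached the filter on low counts through their control retinas, so their direction was not independent of passing it. In 6 of the 8 genes every *Yap* cKO retina lay below every control retina, which held for 9.04% of all tested genes, while 24.3% did not overlap in either direction. The 7 members that passed the filter had -0.56 as the median of their log2 fold changes, against 0.002 over all tested genes, and 5 of the 7 were lower at an unadjusted p under 0.05, as were 9.42% of all tested genes. These shares describe a list that was chosen with earlier results of these data known, and are not a test of it. In whole retinas, fewer cells of a type and less RNA per cell cannot be told apart.

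**Figure D1:**
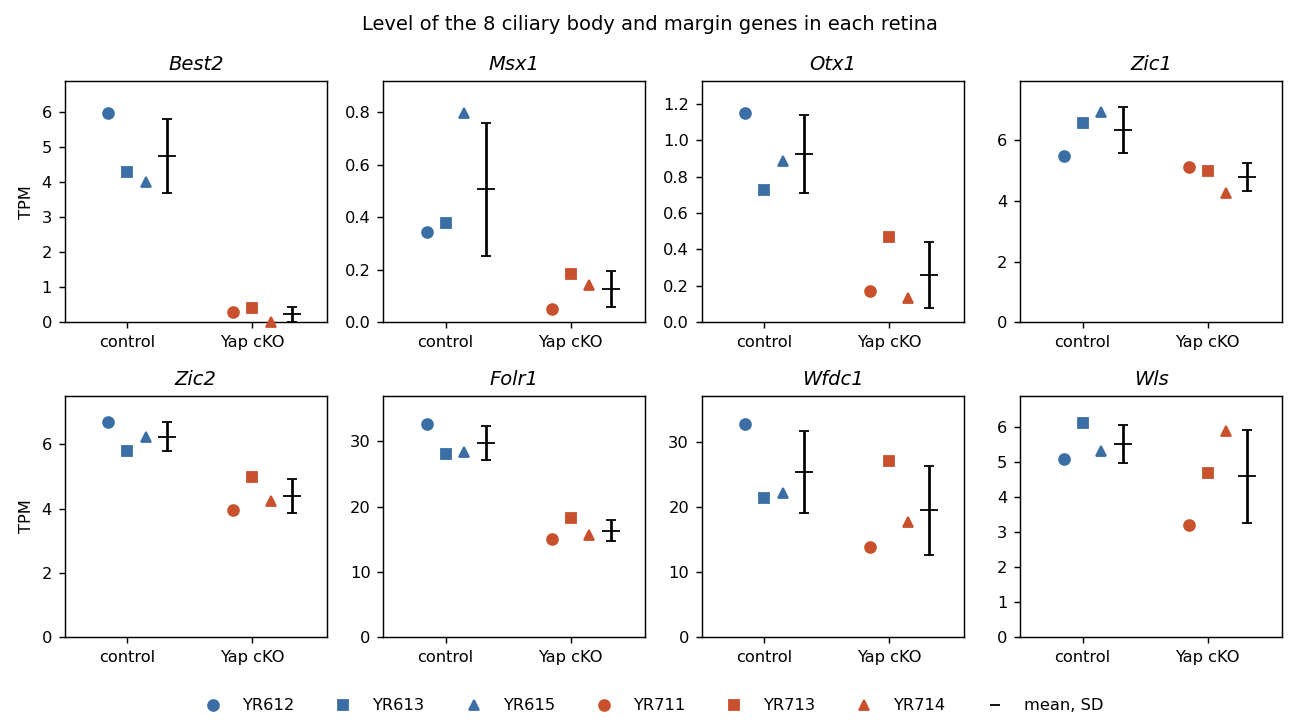
TPM of each of the 8 genes in the 3 control (blue) and 3 *Yap* cKO (orange) retinas, 1 symbol per animal, with the mean and SD of each group in black; every vertical axis starts at 0. The groups are separate for *Best2*, *Msx1*, *Otx1*, *Zic1*, *Zic2* and *Folr1* and overlap for *Wfdc1* and *Wls*.

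*Best2* encodes bestrophin-2, an anion channel of the non-pigmented ciliary epithelium that takes part in aqueous humor formation. The gene (ENSMUSG00000052819, chromosome 8 of GRCm38, 85007202 to 85014531, minus strand) had 87, 65 and 68 counts in the control retinas against 4, 8 and 0 counts in the *Yap* cKO retinas. In TPM the control retinas had 5.95, 4.28 and 3.99 and the *Yap* cKO retinas 0.282, 0.415 and 0. A count of 0 in YR714 allows up to 0.198 TPM (3 counts), a limit for counting error only. All *Yap* cKO retinas thus lay at or below 8.75% of the control mean, far from the lowest control retina. Means were 4.74 ± 1.06 and 0.232 ± 0.212 TPM (SD, n = 3 each). *Best2* fell by 4.29 on the log2 scale (SE 0.469, 95% interval -5.34 to -3.23, adjusted p = 0.00326), a 19.5-fold lower level. *Best2* was called with each retina left out in turn, with adjusted p between 0.000811 and 0.0169, and leaving out YR713, the *Yap* cKO retina with the most *Best2*, gave a log2 fold change of -5.09. Its control mean was under the 5 TPM that the study's criteria ask for, so *Best2* was not differentially expressed by those criteria. With control YR615 left out, that mean was 5.11 TPM and *Best2* met them all (adjusted p = 0.0168).

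*Folr1* encodes folate receptor alpha, a membrane-anchored protein that takes up folate by endocytosis in epithelia. This gene (ENSMUSG00000001827, chromosome 7, 101858331 to 101870788, minus strand) stood at 32.7, 28.1 and 28.3 TPM in the control retinas. The *Yap* cKO retinas had 15.1, 18.2 and 15.7 TPM. The groups were well apart, with 50.9%, 61.1% and 53.0% of the control mean in the *Yap* cKO retinas. *Folr1* fell from 29.7 ± 2.56 to 16.3 ± 1.6 TPM (SD, n = 3 each), a log2 fold change of -0.92 (SE 0.123, 95% interval -1.20 to -0.64, adjusted p = 0.00913), or 1.89-fold lower. It was the 1 member of 8 that met every criterion of the study (adjusted p of at most 0.05, fold change of at least 1.5 and at least 5 TPM in 1 group), as did 0.796% of all tested genes and 0.585% in this direction. The study had drawn *Folr1* among its differentially expressed genes from these same samples, so its call is not independent evidence. Without control YR615 the adjusted p of *Folr1* was 0.0518 and the call was lost.

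**Figure D2:**
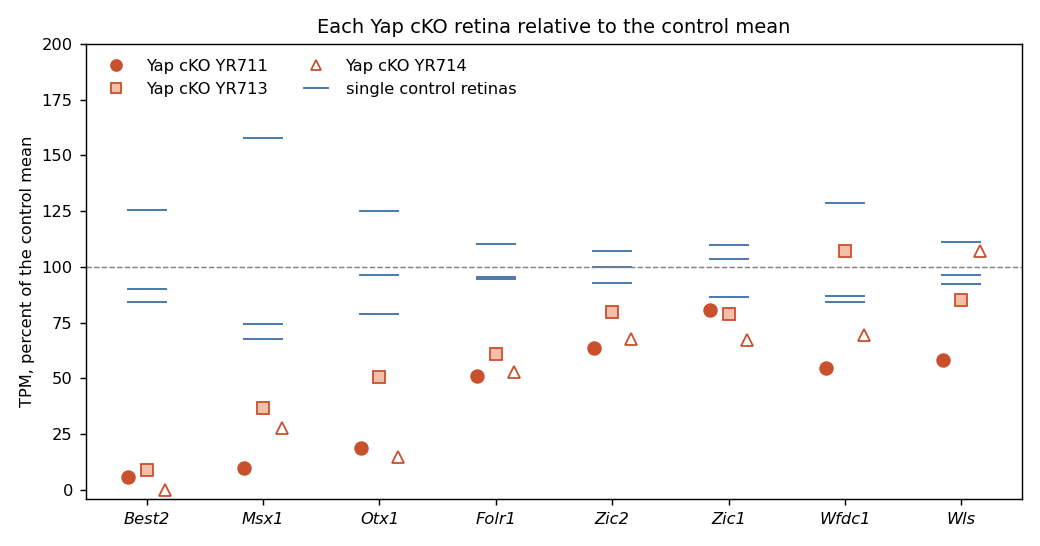
TPM of each gene in the 3 *Yap* cKO retinas (orange symbols) as a percent of the control mean (dashed line at 100), with each control retina as a blue bar, genes ordered by the mean of the *Yap* cKO retinas. *Best2* lies between 0 and 8.75%, *Folr1* between 50.9% and 61.1%, and *Wls* reaches 107% in YR714.

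*Otx1* is a homeobox factor of the forebrain and of the ciliary and iris region of the optic cup. It (ENSMUSG00000005917, chromosome 11, 21994764 to 22002897, minus strand) had 41, 27 and 37 counts in the control retinas against 6, 22 and 5 counts in the *Yap* cKO retinas. In TPM these were 1.15, 0.727 and 0.888 against 0.173, 0.466 and 0.135. No *Yap* cKO retina reached the lowest control retina, but YR713, at 50.7% of the control mean, was far above YR711 (18.8%) and YR714 (14.7%). The log2 fold change was -1.80 (SE 0.407, 95% interval -2.72 to -0.88), and the adjusted p of 0.0671 did not pass the threshold. *Otx1* was called with YR713 left out (log2 fold change -2.61, adjusted p = 0.0376) and with YR613 left out (log2 fold change -1.96, adjusted p = 0.0257). DESeq2's Wald test also called it (adjusted p = 0.00732), as did the quasi-likelihood test with offsets corrected for gene length (adjusted p = 0.0400). Of 9 alternatives with all 6 retinas, 4 called *Otx1*, and limma-voom did not (adjusted p = 0.055). With any retina other than YR713 or YR613 left out, its adjusted p was between 0.0519 and 0.258. The fit without YR613 called 1490 genes and DESeq2 called 892, against 247 by the quasi-likelihood test with all 6 retinas.

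*Msx1*, a homeobox repressor downstream of BMP signals, had the fewest counts. The gene (ENSMUSG00000048450, chromosome 5, 37820485 to 37824583, minus strand) had 7, 8 and 19 counts in the control and 1, 5 and 3 counts in the *Yap* cKO retinas. TPM were 0.343, 0.377 and 0.798 in control and 0.0505, 0.186 and 0.142 in *Yap* cKO retinas, so the groups did not overlap, and control YR615 was the highest. *Msx1* did not pass the filter on low counts and has no value in the comparison. In a fit of all 30129 genes with a count, its log2 fold change was -1.98 (SE 0.570, adjusted p = 0.0126), but that fit called 1865 genes against 247 with the filter.

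The zinc finger factors *Zic1* and *Zic2*, known from neural tube and eye patterning, were lower by a smaller amount. *Zic1* (ENSMUSG00000032368, chromosome 9, 91358058 to 91365810, minus strand) had 5.48, 6.56 and 6.95 TPM in the control retinas against 5.11, 4.99 and 4.27 TPM in the *Yap* cKO retinas. The groups were separate by a narrow gap, between control YR612 and *Yap* cKO YR711. The log2 fold change was -0.46 (SE 0.125, 95% interval -0.74 to -0.18, adjusted p = 0.0997). *Zic2* (ENSMUSG00000061524, chromosome 14, 122475435 to 122479852, plus strand) had 6.68, 5.78 and 6.23 TPM against 3.97, 4.99 and 4.22 TPM. Again the groups did not overlap, with the *Yap* cKO retinas at 63.7%, 80.0% and 67.7% of the control mean. Its log2 fold change was -0.56 (SE 0.152, 95% interval -0.90 to -0.22), with an adjusted p of 0.101. Neither gene passed the threshold in this test, in DESeq2's Wald test or with any 1 retina left out, and both passed without the filter on low counts and in edgeR's likelihood ratio test, the latter with adjusted p-values of 0.0397 for *Zic1* and 0.0346 for *Zic2*.

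For *Wfdc1* and *Wls* the groups overlapped. *Wfdc1*, which encodes a secreted protein of the whey acidic protein family, lies on chromosome 8 (ENSMUSG00000023336, 119666365 to 119688222, plus strand). Its levels were 32.7, 21.4 and 22.1 TPM in control retinas against 13.8, 27.1 and 17.7 TPM in *Yap* cKO retinas. YR713 lay above 2 of the control retinas, and the log2 fold change of -0.43 (SE 0.258, 95% interval -1.01 to 0.15, adjusted p = 0.351) was within the spread between retinas. *Wls* carries Wnt ligands to the cell surface and lies on chromosome 3 (ENSMUSG00000028173, 159839672 to 159938664, plus strand). Its levels were 5.09, 6.12 and 5.31 TPM against 3.21, 4.69 and 5.88 TPM, so that YR714 was above 2 control retinas while YR711 and YR713 were below all 3. Its log2 fold change was -0.31 (SE 0.198, 95% interval -0.76 to 0.13, adjusted p = 0.376). The intervals leave room for a decrease of 1.01 for *Wfdc1* and 0.76 for *Wls* on the log2 scale.

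**Figure D3:**
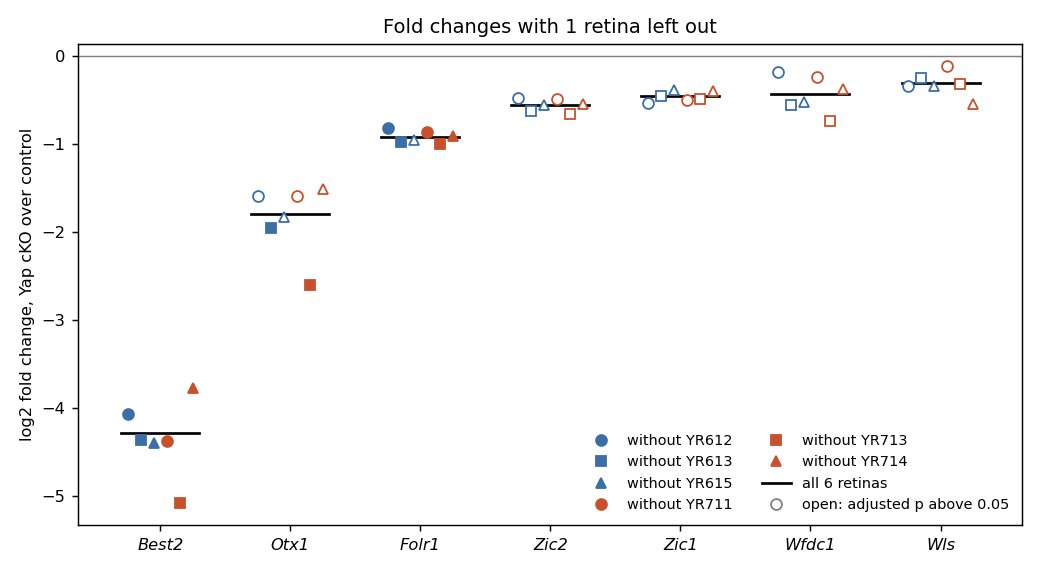
Log2 fold change, *Yap* cKO over control, of the 7 tested members with all 6 retinas (black line) and with each retina left out (symbols; open where the adjusted p is above 0.05). All values are below 0, *Best2* is called each time, and *Otx1* runs from -2.61 without YR713 to -1.52 without YR714.

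The *Yap* cKO retinas did not hold equal levels of the 8 genes. YR713 had the highest TPM of the 3 *Yap* cKO retinas in 6 genes, YR711 the lowest in 5 and YR714 the lowest in 3. The exceptions to the high level of YR713 were *Zic1*, highest in YR711, and *Wls*, highest in YR714. Across the 6 retinas, which include the difference between groups, Pearson's r between members (log2 CPM) ran from 0.319 for *Zic1* and *Wls* to 0.98 for *Zic2* and *Folr1*, over 21 pairs. These correlations describe 6 shared libraries. By the same measure, the genes most like each member over the 6 retinas were *Msrb3* (0.997) and *Abi3bp* (0.996) for *Best2*, *Gstm2* (0.996) and *Pmel* (0.994) for *Otx1*, and *Tfrc* (0.997) and *2310030G06Rik* (0.996) for *Zic1*. They were *Sod3* (0.999) and *Rhoj* (0.995) for *Zic2*, and *Gpx3* (0.993) and *Cd82* (0.989) for *Folr1*. For the overlapping members they were *Gpat4* (0.986) and *Telo2* (0.984) for *Wfdc1* and *Mrps9* (0.989) and *Hnf4a* (0.989) for *Wls*. These are the highest values found among all 16575 tested genes over only 6 retinas, so they do not show shared regulation. *Gpat4* (log2 fold change -0.09) and *Telo2* (-0.07) hardly differed between the groups.

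Relatives of the 8 genes, the other bestrophins, Otx, Msx, Zic, folate receptor and WAP genes with the folate carriers *Slc19a1* and *Slc46a1* and the Wnt acyltransferase *Porcn*, were examined next. Beside the counts of this list and those below, 0.989% of all tested genes were lower and 0.501% higher at the adjusted p. At an unadjusted p under 0.05, 9.42% of all tested genes were lower. Of 14 relatives 11 were tested, and the median of their log2 fold changes was -0.13. edgeR's quasi-likelihood test called 0 of them in either direction, with 1 lower and 1 higher at an unadjusted p under 0.05, and DESeq2's Wald test called 1 lower and 1 higher. The lowest was *Zic4*, the neighbour of *Zic1*, with a log2 fold change of -1.35 (SE 0.303, adjusted p = 0.0651). *Zic4* had 7, 21 and 15 counts in the *Yap* cKO retinas and reached the filter on low counts through its control retinas. Its direction was thus not independent of passing the filter. Its exons overlap those of *Zic1* on the other strand, and the counting used strand. The highest was *Best3*, with 3.16 ± 1.21 TPM against 6.46 ± 0.76 TPM (SD, n = 3 each; log2 fold change 0.98, SE 0.227, adjusted p = 0.0713). *Otx2*, the relative of *Otx1* in photoreceptors, bipolar cells and pigment epithelium, had 191 ± 3.06 and 197 ± 10.5 TPM.

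**Figure D4:**
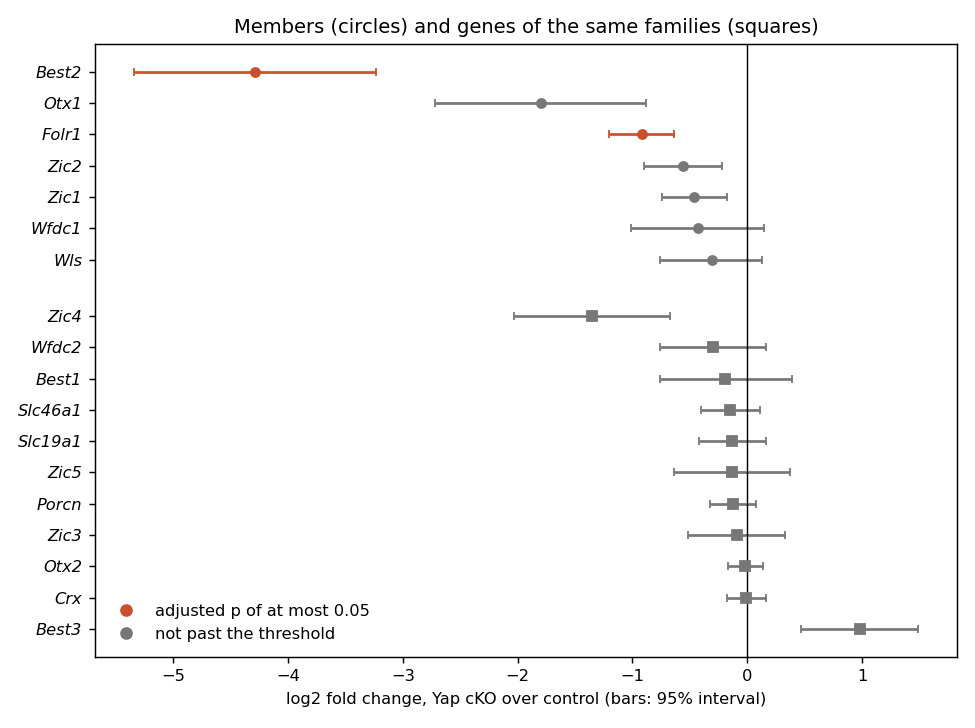
Log2 fold change, *Yap* cKO over control, with 95% intervals for the 7 tested members (circles) and 11 tested genes of the same families (squares), orange at an adjusted p of at most 0.05. *Best2* (-4.29) and *Folr1* (-0.92) are orange, and no family relative is.

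Among 17 tested genes that pattern the optic cup margin, with Wnt and BMP ligands and margin transcription factors, 1 fell and 0 rose, while 4 were lower and 3 higher at an unadjusted p under 0.05. *Rhoj*, which encodes a small GTPase, fell from 7.88 ± 0.818 to 4.42 ± 0.731 TPM (SD, n = 3 each; log2 fold change -0.89, SE 0.15, adjusted p = 0.0265), a call that did not survive leaving out YR612, YR615 or YR711, each of which left 0 genes of the list lower. The ligand *Bmp4* had the lowest value of the list (-1.18, adjusted p = 0.127), and *Wnt2b*, a Wnt ligand of the ciliary margin, had the highest (0.50, adjusted p = 0.108). The median log2 fold change over the list was -0.14.

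Of 19 genes for ion and fluid transport and junctions of the secretory ciliary epithelium, 2 fell, 1 rose and 16 did not pass. *Cldn2*, which forms cation- and water-permeable tight junctions, fell from 5.69 ± 0.823 to 0.544 ± 0.417 TPM (log2 fold change -3.35, adjusted p = 0.00326). It had 4, 29 and 10 counts in the *Yap* cKO retinas and reached the filter on low counts through its control retinas. Its direction was thus not independent of passing the filter. The gap junction gene *Gja1* (-1.86, adjusted p = 0.0187) also fell. The bicarbonate cotransporter gene *Slc4a4* rose (0.57, adjusted p = 0.0498), by 1.48-fold and so under the study's minimum fold change of 1.5. With median ratio, library size or upper quartile size factors, 0 genes of the list rose. The same held with a filter of at least 1 CPM in 3 retinas and with YR612, YR615, YR711 or YR713 left out. At an unadjusted p under 0.05, 5 genes of the list were lower and 3 higher. Genes that did not pass included the tight junction gene *Cldn1* (-1.16, adjusted p = 0.0539), the prostaglandin synthase gene *Ptgds* (-1.33, adjusted p = 0.0892), the chloride channel gene *Clic6* (-0.87, adjusted p = 0.0861), the transthyretin gene *Ttr* (-0.70, adjusted p = 0.244) and the water channel gene *Aqp1* (0.29, adjusted p = 0.126), which the retina also expresses. The median of the list was -0.06. The count of lower genes was 1 with YR612 or YR615 left out, 4 with YR613 left out and 7 with YR714 left out.

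The zonule and vitreous matrix genes are in part products of the same non-pigmented epithelium. Of 16 tested genes 6 fell and 0 rose, 12 were lower at an unadjusted p under 0.05, the median of the log2 fold changes was -1.12, and the whole list of 18 summed to between 206 and 224 TPM in control and between 80.1 and 119 TPM in *Yap* cKO retinas. *Ltbp2* of the zonular microfibrils fell by 4.08 (adjusted p = 0.00223) on the log2 scale, and *Fbn1*, the fibrillin of these fibres, fell by 1.31 (adjusted p = 0.00223). *Ltbp2* had 13, 58 and 7 counts in the *Yap* cKO retinas and reached the filter on low counts through its control retinas. Its direction was thus not independent of passing the filter. The vitreous proteoglycan gene *Optc*, made by the non-pigmented epithelium, decreased by 3.41 (adjusted p = 0.00243) on the same scale. The collagen genes *Col18a1* (log2 fold change -1.96, adjusted p = 0.00123) and *Col9a2* (-1.11, adjusted p = 0.0334) fell as well. *Hapln1* had the highest value, 0.34 (adjusted p = 0.370). Several genes of this list were drawn by the study from these samples and are not independent evidence. With 1 retina left out, between 4 and 9 genes of the list fell, 4 without control YR612 or YR615.

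Markers of tissues next to the margin were measured beside the 8 genes. Over the 9 tested of 12 connective tissue fibroblast genes, 4 fell, among them *Fmod* (-3.91, adjusted p = 0.000216) and *Ogn* (-2.62, adjusted p = 0.00123). The 5 that did not pass ran from *Islr* (-0.78) to *Col1a1*, the highest of the list (0.08), with *Pdgfra* at -0.05. The median of the list was -0.78. Its summed level was 56.4 to 61.5 TPM in control and 17.4 to 22.6 TPM in *Yap* cKO retinas. Within that sum, mean *Fmod* went from 24.6 to 1.68 TPM, *Ogn* from 10.6 to 1.75 TPM and *Pdgfra* from 7.33 to 7.38 TPM. Of 10 melanin pigment genes 8 did not overlap between the groups and were lower, against 9.04% of all tested genes. At an unadjusted p under 0.05, 7 were lower, against 9.42% of all tested genes, and 1 was higher. The median of their log2 fold changes was -0.97. At the adjusted threshold 1 fell, *Pmel* (-1.89, adjusted p = 0.0347), and 0 rose. In edgeR's likelihood ratio test 6 fell and 1 rose, and in DESeq2's Wald test 2 fell and 1 rose. With YR612, YR615 or YR711 left out 0 fell, while 2 fell and 1 rose with YR613 or YR714 left out and 3 fell with YR713 left out. The highest was *Trpm1* (0.64, adjusted p = 0.0772), which bipolar cells also express. The list summed to between 120 and 136 TPM in control and 90.2 and 127 TPM in *Yap* cKO retinas. Without *Trpm1*, a sum chosen after its values were seen, the control retinas had 85.5 to 91.5 TPM and YR711, YR713 and YR714 had 24.2, 56.9 and 36.6 TPM. No gene of these lists was at 0 in every retina.

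Of 10 retinal pigment epithelium genes, from *Rpe65* (-1.03, adjusted p = 0.201) to *Cdh1* (0.03), edgeR's quasi-likelihood test called 0, with 4 lower at an unadjusted p under 0.05, while DESeq2 called 1 and the count was 8 with YR714 left out and 1 with YR613 left out. Their sum was 1153 to 1223 TPM in control and 841 to 1067 TPM in *Yap* cKO retinas, most of it *Rlbp1*, which Müller glia share and whose mean level was 936 ± 29.5 TPM against 760 ± 37.5 TPM (SD, n = 3 each). Without *Rlbp1*, a sum also chosen after its values were seen, it was 245 to 276 TPM in control and 67.6, 123 and 278 TPM in YR711, YR713 and YR714. The pigment epithelium genes had a median difference from the control mean, on the log2 CPM scale, of -1.46 in YR711, -0.91 in YR713 and 0.03 in YR714. From YR711 to YR714, *Wls* went from 58.2% to 107% of its control mean, *Wfdc1* from 54.5% to 69.6%, *Msx1* from 9.99% to 28.0%, *Zic2* from 63.7% to 67.7% and *Folr1* from 50.9% to 53.0%. Over the same pair of retinas *Best2* went from 5.96% to 0%, *Otx1* from 18.8% to 14.7% and *Zic1* from 80.8% to 67.4%. The pigment epithelium median of YR713 lay between those of YR711 and YR714. YR713 had the highest *Yap* cKO level in 6 of the 8 genes, such as *Wfdc1* (107%), *Zic2* (80.0%) and *Folr1* (61.1%). It also had the highest *Yap* cKO sum of the zonule and vitreous list (119 TPM) and the fibroblast list (22.6 TPM). The same held for the melanin list without *Trpm1* (56.9 TPM). By list medians YR713 was highest for zonule and vitreous (-0.67), but between the other *Yap* cKO retinas for fibroblast (-0.62) and melanin genes (-0.53). The part of pigment epithelium, connective tissue, melanin-bearing and other neighbouring tissue in the levels of the 8 genes was not tested.

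**Figure D5:**
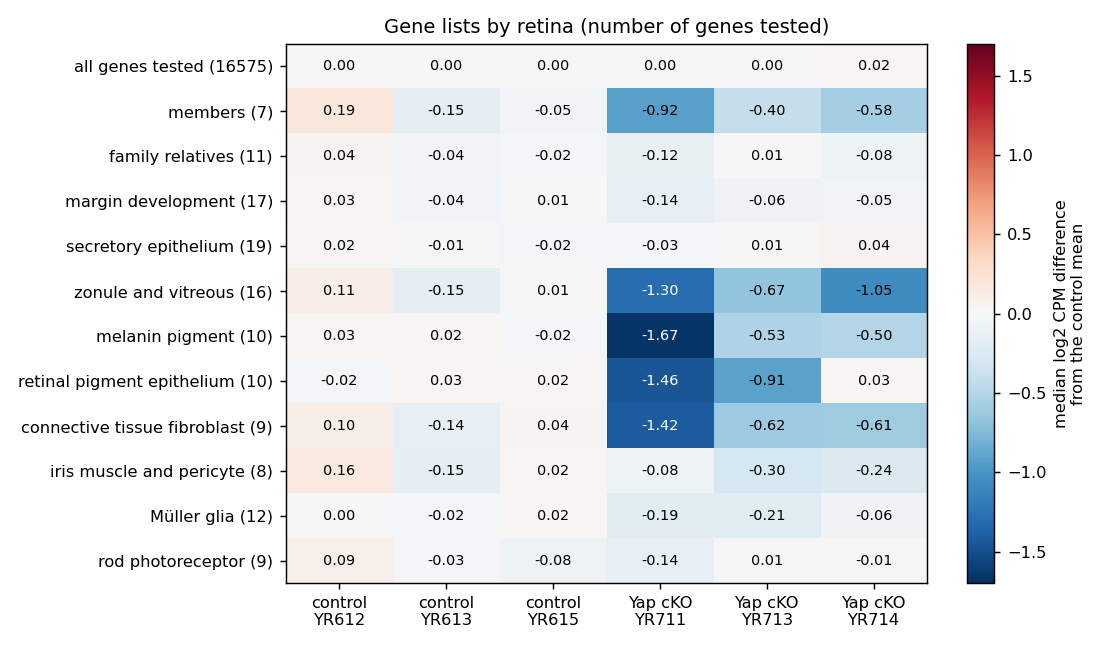
Median difference from the control mean (log2 CPM, colour and number) of the tested genes of each list, 1 column per retina and 1 row per list. The lens list is not shown. The members list, here the 7 tested members, is lower in all *Yap* cKO retinas (-0.92, -0.40 and -0.58), the pigment epithelium list is not in YR714 (0.03), and all tested genes together lie within 0.02 of 0.

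Other cell types of the eye were read in the same way. Among 12 Müller glia genes, from *Apoe* (-0.46, adjusted p = 0.164) to *Kcnj10* (0.28, adjusted p = 0.126), edgeR's quasi-likelihood test called 0, with 5 lower and 1 higher at an unadjusted p under 0.05, and DESeq2 called 1. Leaving out YR613 gave 3 lower Müller glia genes and leaving out YR714 gave 2. They summed to between 7887 and 8189 TPM in control and between 6952 and 7260 TPM in *Yap* cKO retinas. The 9 rod genes, from *Cnga1* (-0.14) to *Rp1* (0.09), had 0 calls by edgeR's quasi-likelihood test and by DESeq2 and 0 at an unadjusted p under 0.05. Of 8 tested iris muscle and pericyte genes, from *Tagln* (-0.54) to *Rgs5* (0.00), 0 passed by either tool, with 1 lower at an unadjusted p under 0.05. Of 11 lens genes 3 were tested, and they too had 0 calls by either tool, with 2 lower at an unadjusted p under 0.05 and a sum of the whole list between 4.91 and 16.2 TPM in control and 2.86 and 4.76 TPM in *Yap* cKO retinas. The lens list ran from *Bfsp2* (-0.92) to *Lgsn* (0.17), and 1 of its genes was at 0 in every retina.

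Reads of the 8 genes could be told from those of other genes over nearly all of their length. Of the 40-base words in their transcripts, 0% were shared with another gene for *Best2*, *Msx1*, *Zic2* and *Wfdc1*. The share was 0.26% for *Otx1*, 0.51% for *Wls*, 0.81% for *Folr1*, with *Gm18334*, and 1.28% for *Zic1*. No exon of another gene overlapped a member on the same strand.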

How the data were processed

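RNA of 6 retinas was sequenced as stranded, paired-end mRNA libraries. Per the labels and the header of the count table, the authors aligned reads to GRCm38 with STAR 2.7.3a and counted fragments per gene with featureCounts 1.6.2 (strand setting 2, Ensembl release 98). The deposited values are raw counts per gene, 1 column per retina, and the exonic lengths of the same table were used for TPM. Symbols came from the reference annotation for 55154 of 55421 genes. Counts were analysed in R 4.3.3 with edgeR 4.0.16 (filterByExpr by group, TMM factors 0.986 to 1.02, quasi-likelihood F test without covariates, common dispersion 0.0126) and Benjamini-Hochberg adjustment. Interval limits are 95% limits of the fitted log2 fold change. The study's text names edgeR but not which of its tests. By the study's criteria the fit used here called 132 genes, fewer than the study reported. DESeq2's Wald test called 263 and edgeR's likelihood ratio test 291 by the same criteria. A gene that did not pass here may thus have passed in the study. Total counts were 24261799 to 35067068 per retina. There were 18 alternatives, with DESeq2 1.42.0 and limma 3.58.1 among the tools, and the steps were tested on simulated data.

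Named genes were the 8 members, *Yap1*, in each list the highest and lowest log2 fold change and up to 6 genes meeting every criterion, and for each tested member the 2 genes of highest Pearson r (log2 CPM, prior count 2). *Otx2*, *Rlbp1*, *Cldn1*, *Ptgds*, *Clic6*, *Ttr*, *Aqp1*, *Islr*, *Pdgfra* and the genes in the text on shared sequence and counting were named outside this rule after their values were seen. The members, lists and tests were chosen with earlier results of these data known. The lists share genes: *Best1* (relatives and pigment epithelium), *Mfap5* (zonule and fibroblasts), *Rlbp1* (pigment epithelium and Müller glia), *Sox9* and *Rdh10* (margin and Müller glia). Items withheld from this text are not reported here, and the secretory epithelium and rod lists were counted without them.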

Additional observations from a re-analysis of the deposited data

How the results depend on the processing

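The 7 tested members had 105 log2 fold changes over the alternatives, of which 93 kept their direction and their side of the threshold, 11 passed it newly, 1 no longer passed it and 0 changed sign. The number of members past the adjusted p (2) was 5 by edgeR's likelihood ratio test and 7 of 8 without the filter on low counts, and ran from 1 (without control YR615) to 3 (without control YR613 or *Yap* cKO YR713) with each retina left out. The number meeting every criterion (1) was 2 with no minimum TPM or a minimum of 1 TPM, 0 at a fold change of at least 2, and 1 with each retina left out, which was *Best2* without control YR615 and *Folr1* in the other fits. Over all genes, 247 passed at the adjusted p of 0.05, against 892 by DESeq2's Wald test, 1025 by the likelihood ratio test, 1865 without the filter, 459 with offsets corrected for gene length, and 49 (without control YR615) to 1490 (without control YR613) with 1 retina left out. The cause of these differences was not tested. No other size factors moved the median of all genes by more than 0.05 on the log2 scale or turned a member's direction. No paired analysis was possible because the labels carry animal codes and no replicate numbers that the groups share. With 3 retinas per group and few counts for *Msx1*, *Otx1* and *Best2*, depth limits the precision of these genes.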
